A study of Mus musculus with 47 samples.

Results

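The change in the cortical transcriptome across lights-on was measured by comparing ZT22, the last dark-phase time point, with ZT2, the first light-phase time point 4 h later. Zeitgeber time (ZT) counts hours from lights-on at ZT0, and lights went off at ZT12. All 8 mice sampled at ZT2 and all 8 mice sampled at ZT22 were used, 16 of the 47 libraries of the series, with 4 mice on each diet at each time point. On the read counts, the clearest difference was a lower level at ZT2 of a small set of transcripts, led by Hif3a, Xdh, Atp10a, Tsc22d3, Plin4, Fkbp5 and Ddit4, 5 of which belong to a list of genes that respond to glucocorticoid hormones. No gene passed an adjusted p of 0.05 in the test on TPM, a transcript abundance scaled for length and depth, and 9 genes passed in the edgeR test on the read counts of the same mice.

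The mice were male, of strain C57BL/6J and about 3 months old at harvest. They were kept 4 to a cage and received either control chow or chow with 1200 ppm PLX5622 for 10 days. PLX5622 inhibits the receptor CSF1R, on which microglia depend for survival, and as a drug in chow it reaches every tissue. The mice were killed with CO2 and perfused with saline, and RNA came from the microdissected cortex of a single hemisphere, so each library is 1 mouse and holds every cell type of the tissue. In such bulk samples, fewer cells of a type and less RNA per cell cannot be told apart. The time points differ in clock hour, light, sleep and feeding together, and these cannot be told apart in this design.

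The 16 libraries held 17161327 to 24901107 counts. Mitochondrially encoded genes took 7.20% to 9.59% of the counts at ZT2 and 6.57% to 9.19% at ZT22, a difference in means of 0.728 percentage points (exact permutation within diets, two-sided, 4900 arrangements, p = 0.137). The same test gave an exact permutation p of 0.529 for total counts and 0.617 for the number of genes with a count. The library PLX5622 ZT2 replicate 2 stood apart from its group more often than any other: it held 4 of the 8 single values found far from the rest of their group. The count of genes called by edgeR was 23 without it, against 9 with it. Defining markers of cortical neurons, astrocytes and oligodendrocytes were present in every library. The 16 microglial markers summed to 669 to 889 TPM in the control libraries at ZT22, 689 to 844 at ZT2, 62.3 to 104 in PLX5622 libraries at ZT22 and 24.1 to 81.0 at ZT2.

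As background, the mammalian clock is a loop in which BMAL1 (encoded by Arntl) and its partners CLOCK and NPAS2 activate genes through E-boxes, and the PER and CRY proteins made from those genes repress them. REV-ERB proteins (Nr1d1, Nr1d2) and ROR proteins act on Arntl, and the PAR bZIP factors DBP, TEF and HLF carry the rhythm to other genes through D-boxes, opposed by NFIL3. In nocturnal rodents adrenal glucocorticoids are released in a daily rhythm that is highest near lights-off and low in the early light phase, and the glucocorticoid receptor activates targets such as Fkbp5 and Tsc22d3 in most tissues. Neuronal activity and wakefulness raise immediate early genes in cortex.

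Promoters of the genes on which the results turn are shown because these transcription factors act on promoter sequences. They are the 9 genes called by edgeR and the 6 clock and output genes with an unadjusted p under 0.05 in limma, and 13 of these 15 genes had an entry in the RefSeq promoter table (build GRCm38.p6), with 20 promoters of 300 bases, from 250 before the start to 50 after it. Both strands were searched for CACGTG (E-box), AGAACA (one arm of a glucocorticoid receptor site, TGTTCT on the other strand), TGACGTCA (cyclic AMP response element), TAGGTCA (ROR and REV-ERB core), TTATGTAA and TTACGTAA (D-box). Of all 32851 promoters in the table, 7.15% held CACGTG, 19.0% AGAACA, 1.79% TGACGTCA, 2.61% TAGGTCA, 0.938% TTATGTAA and 0.119% TTACGTAA. The glucocorticoid-responsive genes are shown first and the clock genes after them, with matches in capitals. The windows are Fkbp5 at chr17:28486100-28486399 (minus strand), Tsc22d3 at chrX:140600473-140600772 (minus strand, 1 of 3 starts), Per3 at chr4:151044616-151044915 (minus strand), Ciart at chr3:95882179-95882478 (minus strand), Tef at chr15:81802423-81802722 (plus strand, 1 of 2 starts) and Arntl at chr7:113207261-113207560 (plus strand, 1 of 2 starts).
Fkbp5: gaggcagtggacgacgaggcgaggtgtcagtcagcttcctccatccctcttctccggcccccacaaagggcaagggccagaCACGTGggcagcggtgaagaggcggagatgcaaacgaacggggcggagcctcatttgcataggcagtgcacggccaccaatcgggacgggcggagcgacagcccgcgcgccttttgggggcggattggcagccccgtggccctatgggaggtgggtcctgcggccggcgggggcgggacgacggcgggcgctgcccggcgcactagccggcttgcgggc
Tsc22d3: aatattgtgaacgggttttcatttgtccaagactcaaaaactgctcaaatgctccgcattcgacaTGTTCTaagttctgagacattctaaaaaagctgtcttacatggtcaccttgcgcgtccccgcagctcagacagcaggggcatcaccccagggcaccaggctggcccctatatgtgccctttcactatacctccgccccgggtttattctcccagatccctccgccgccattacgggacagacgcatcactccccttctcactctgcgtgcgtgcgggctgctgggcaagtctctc
Per3: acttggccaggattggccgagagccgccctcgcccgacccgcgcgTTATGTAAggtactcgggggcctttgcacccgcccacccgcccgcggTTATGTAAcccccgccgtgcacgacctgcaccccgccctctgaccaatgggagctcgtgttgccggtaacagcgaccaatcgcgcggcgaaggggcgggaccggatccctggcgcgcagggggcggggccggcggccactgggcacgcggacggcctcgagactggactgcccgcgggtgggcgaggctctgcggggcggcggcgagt
Ciart: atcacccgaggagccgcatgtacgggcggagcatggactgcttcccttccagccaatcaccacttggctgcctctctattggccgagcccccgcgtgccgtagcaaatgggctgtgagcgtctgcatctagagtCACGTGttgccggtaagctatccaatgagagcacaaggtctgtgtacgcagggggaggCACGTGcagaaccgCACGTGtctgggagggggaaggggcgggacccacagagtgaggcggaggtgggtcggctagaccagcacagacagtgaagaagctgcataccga
Tef: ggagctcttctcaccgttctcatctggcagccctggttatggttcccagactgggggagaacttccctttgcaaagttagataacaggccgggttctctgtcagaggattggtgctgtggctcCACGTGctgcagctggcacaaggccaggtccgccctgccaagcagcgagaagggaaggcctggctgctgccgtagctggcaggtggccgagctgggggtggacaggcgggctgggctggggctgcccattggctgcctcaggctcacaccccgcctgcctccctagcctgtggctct
Arntl: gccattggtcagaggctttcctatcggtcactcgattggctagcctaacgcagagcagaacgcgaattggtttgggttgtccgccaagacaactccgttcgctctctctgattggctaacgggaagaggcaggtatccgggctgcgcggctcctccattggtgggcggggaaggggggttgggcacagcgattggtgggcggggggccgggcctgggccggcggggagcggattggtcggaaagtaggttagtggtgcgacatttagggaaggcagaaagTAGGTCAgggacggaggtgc

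Fkbp5 held 1 E-box, Tsc22d3 1 glucocorticoid receptor arm, Per3 2 D-boxes, Ciart 3 E-boxes, Tef 1 E-box and Arntl 1 ROR and REV-ERB core. Among windows not shown, a glucocorticoid receptor arm lay in 1 of 3 starts of Fam53b, a gene higher at ZT2. The other start of Tef held an arm beside an E-box. Fkbp5 and the other starts of Tsc22d3 held no arm. Of the 20 promoters, 4 held an E-box, 3 a glucocorticoid receptor arm, 1 a D-box, 1 a ROR and REV-ERB core and 0 a cyclic AMP response element. The promoters of Hif3a, Atp10a, Plin4, Ddit4, Cbfa2t3 and Nr1d1 held none of these letters in this window. A match is a description of the letters only.

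Across the 14580 genes whose TPM averaged 1 or more, limma on log2(TPM + 1) with diet as a covariate called 0 genes (0% of those tested, smallest Benjamini-Hochberg adjusted p = 0.22). At an unadjusted p under 0.05 there were 691 genes, 4.74% of those tested, where 5% would be 729. Of these, 486 were lower at ZT2 (3.33%) and 205 higher (1.41%), and over all genes tested 9091 had a negative and 5485 a positive log2 fold change, with a median of -0.03. Scaling the TPM values by median-of-ratios factors brought that median to 0 and the unadjusted split to 414 lower and 382 higher, again with 0 called. The TPM ranges of the time points did not overlap for 7 genes (0.048%). These were Klf4, Dnajb5 and Fbrsl1, which were higher at ZT2, and Xdh, Fkbp5, Atp10a and Nat8f1, which were lower.

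On the counts, edgeR's quasi-likelihood test with the same design called 9 of 16530 genes (0.0544%), of which 7 fell and 2 rose, and DESeq2 called 37 of the 15262 genes to which it gave an adjusted p (0.242%), 19 lower and 18 higher. All 9 genes called by edgeR were among the 37. An edgeR fit of all 47 libraries, added after seeing the data, called 23 of 18274 genes (0.126%), 14 lower and 9 higher, and all 9 genes were again among them. In a limma fit on the TPM values of all 47 libraries, in which 12 groups share an estimate of the spread, 4 genes were lower at ZT2 (0.0274%). They were Atp10a (adjusted p = 0.00671), Xdh (0.0126), Tsc22d3 (0.0164) and Plin4 (0.0187), and all 4 were among edgeR's 9. The 9 genes were named after their values were seen. All 9 had the same sign on each diet in edgeR. Their choice by the pooled test of the same mice favours this, so it is no separate test.

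Hif3a (chromosome 7, 17031507 to 17062427, minus strand) encodes a subunit of the hypoxia-inducible factor family. Its levels in CPM (counts scaled to the total of the library) were 5.71 to 12.2 at ZT22 (median 7.66) and 1.05 to 3.70 at ZT2 (median 2.36), so the ranges did not overlap. It fell by 1.72 on the log2 scale (edgeR adjusted p = 0.000398), with -1.76 in control and -1.67 in PLX5622 mice. The TPM table did not show the same step: TPM were 1.01 to 2.57 at ZT22 (median 1.64) and 0.602 to 2.13 at ZT2 (median 1.24), with a log2 difference of -0.24 ± 0.15 (SE, limma unadjusted p = 0.128). On TPM the sign differed between diets, with -0.55 in control and 0.06 in PLX5622 mice. The 2 tables were made by different quantification steps, and the part of these in the discrepancy was not tested.

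Xdh (chromosome 17, 73883895 to 73950196, minus strand) encodes xanthine dehydrogenase, which breaks purines down to uric acid. It lay at 7.24 to 13.7 CPM at ZT22 (median 9.72) and 3.73 to 6.50 CPM at ZT2 (median 5.09), with no overlap. The log2 fold change was -0.97 in edgeR (adjusted p = 0.000398) and -0.64 ± 0.11 (SE) in limma on TPM. Atp10a (chromosome 7, 58656166 to 58829420, plus strand), a P4-ATPase that moves phospholipids across membranes, also showed no overlap, with 13.9 to 22 CPM at ZT22 (median 18.3) and 9.51 to 12.5 CPM at ZT2 (median 11.2). It fell by 0.64 on the log2 scale (edgeR adjusted p = 0.00166).

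Tsc22d3 (chromosome X, 140539528 to 140600659, minus strand) encodes GILZ, a glucocorticoid-induced leucine zipper protein. It was at 71.6 to 105 CPM at ZT22 (median 85.4) and 53.4 to 75.1 CPM at ZT2 (median 59.2), and 7 of 8 mice at ZT2 lay below every mouse at ZT22. The log2 fold change was -0.51 (edgeR adjusted p = 0.00533). Fkbp5 (chromosome 17, 28399094 to 28517527, minus strand) encodes FKBP51, a co-chaperone that lowers the hormone affinity of the glucocorticoid receptor. Its ranges did not overlap, at 28.9 to 36.0 CPM at ZT22 (median 32.8) and 24.2 to 27.5 CPM at ZT2 (median 26.4). The log2 fold change of Fkbp5 was small, -0.30 (edgeR adjusted p = 0.0373), with -0.33 in control and -0.27 in PLX5622 mice.

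Plin4 (chromosome 17, 56100591 to 56109803, minus strand) encodes perilipin 4, a coat protein of lipid droplets. It spread more widely than the other genes at ZT22, with 2.01 to 13.1 CPM (median 5.77), and lay at 1.45 to 2.73 CPM at ZT2 (median 2.04), so the ranges overlapped and 4 of 8 mice at ZT2 lay below every mouse at ZT22. It fell by 1.53 on the log2 scale (edgeR adjusted p = 0.0211), with -1.98 in control and -1.04 in PLX5622 mice. Ddit4 (chromosome 10, 59949669 to 59951834, minus strand), which encodes REDD1, an inhibitor of mTORC1, was at 39.1 to 47.3 CPM at ZT22 (median 43.8) and 27.4 to 41.0 CPM at ZT2 (median 32.8). It fell by 0.39 on the log2 scale (edgeR adjusted p = 0.0374).

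The 2 genes that rose in edgeR were Fam53b and Cbfa2t3. Fam53b (chromosome 7, 132712082 to 132813886, minus strand) was at 33.3 to 42.6 CPM at ZT22 (median 38.4) and 40.5 to 55.4 CPM at ZT2 (median 48.9), with a log2 fold change of 0.39 (edgeR adjusted p = 0.0177). Cbfa2t3 (chromosome 8, 122625141 to 122699109, minus strand) encodes a transcriptional corepressor of the ETO family. It was at 20.3 to 36.1 CPM at ZT22 (median 30.1) and 28.5 to 45.5 CPM at ZT2 (median 40.8), with a log2 fold change of 0.49 (edgeR adjusted p = 0.0373). Both had overlapping ranges.

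When each library was left out in turn (16 fits), Hif3a, Xdh, Atp10a and Tsc22d3 kept an edgeR adjusted p under 0.05 in every fit, the largest being 0.0243 for Tsc22d3 without control ZT2 replicate 3. Plin4 lost its call in 8 fits (adjusted p up to 0.0861 without control ZT2 replicate 2), Fkbp5 in 14 (up to 0.147 without PLX5622 ZT22 replicate 1), Ddit4 in 12, Cbfa2t3 in 11 and Fam53b in 3 (up to 0.123, 0.123 and 0.0653, each without control ZT2 replicate 3).

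**Figure D1:**
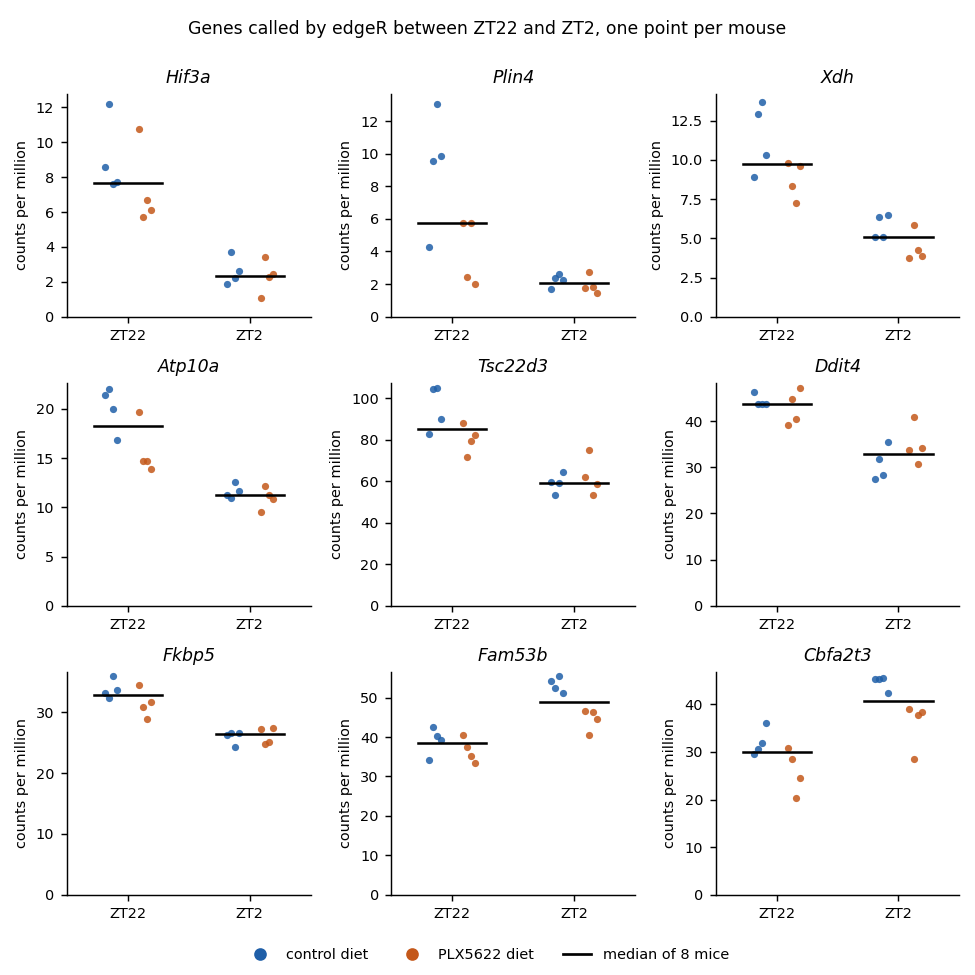
CPM of the 9 genes called by edgeR, one point per mouse (4 on each diet at each time point, blue control, orange PLX5622), with bars at the median of 8 mice. The first 7 genes are lower at ZT2, and Hif3a, Xdh, Atp10a and Fkbp5 show no overlap between time points, while Fam53b and Cbfa2t3 are higher at ZT2.

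The list of glucocorticoid receptors and responsive genes had 17 of 18 members tested. Of these, 15 had a negative log2 fold change, where 9091 of all 14580 genes had. The list median was -0.24, against -0.03 over all genes tested, with -0.35 in control mice and -0.13 in PLX5622 mice. At an unadjusted p under 0.05 there were 9 members, all lower at ZT2, beside 3.33% of all genes tested. edgeR called 5 (Hif3a, Tsc22d3, Plin4, Fkbp5 and Ddit4), beside 0.0544% of all genes it tested. DESeq2 also called Map3k6, at -0.51 (adjusted p = 0.0323), whose TPM ranges overlapped.

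Members of this list that passed no adjusted threshold in edgeR included metallothioneins and lipid genes. Sult1a1, a sulfotransferase, was at 10.4 to 18.3 TPM at ZT22 (median 12.1) and 6.60 to 13.8 TPM at ZT2 (median 11.1), a log2 difference of -0.36 ± 0.11 (SE). Zbtb16, a zinc-finger transcription factor, had a log2 difference of -0.32 ± 0.13, Mt2 -0.30 ± 0.11, Pnpla2 (adipose triglyceride lipase) -0.29 ± 0.12 and Mt1 -0.23 ± 0.08. Mt2 lay at 607 to 1326 TPM over the 16 libraries but at only 0.918 to 2.97 CPM, so its difference rests on the TPM values. The receptors themselves had log2 differences of 0.05 ± 0.12 for the glucocorticoid receptor gene Nr3c1 and -0.12 ± 0.08 for the mineralocorticoid receptor Nr3c2. Cdkn1a had a log2 difference of 0.15 ± 0.12.

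**Figure D2:**
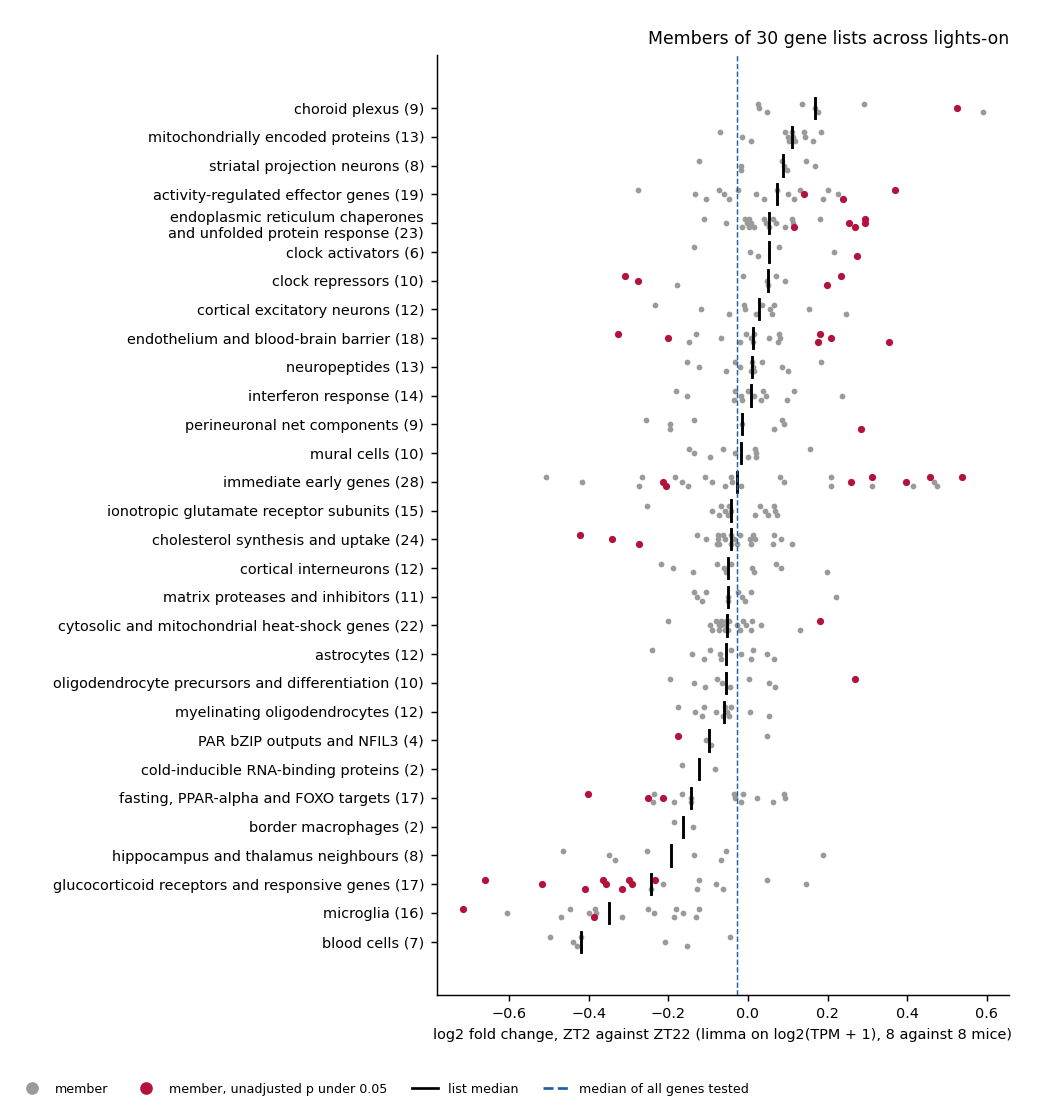
Log2 fold change of ZT2 against ZT22 for each member of 30 gene lists (limma on log2(TPM + 1), 8 against 8 mice), with black bars at list medians, red points for an unadjusted p under 0.05 and a dashed line at the median of all genes tested. The glucocorticoid list sits at -0.24 with 9 red points on the low side, and most neuronal and glial lists sit near the dashed line.

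The clock genes differed by small amounts, and none passed in limma or edgeR on the 16 libraries. Among the activators, Arntl was at 11.2 to 14.3 TPM at ZT22 (median 12.7) and 11.8 to 18.8 TPM at ZT2 (median 15.5), and 6 of 8 mice at ZT2 lay above every mouse at ZT22. Its log2 difference was 0.28 ± 0.08 in limma (SE, adjusted p = 0.759), and it passed in DESeq2 (0.30, adjusted p = 0.0277). In edgeR its adjusted p was 0.177 with the 16 libraries and 0.0277 with all 47, where it was the clock gene called. Npas2, at 0.22 ± 0.13, and Clock, at 0.03 ± 0.07, were the other activator subunits. Rora lay at -0.13 ± 0.11 and Rorb at 0.01 ± 0.07.

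The repressors went both ways. Per3 was at 6.09 to 8.0 TPM at ZT22 (median 7.18) and 5.14 to 6.79 TPM at ZT2 (median 5.43), with 6 of 8 mice at ZT2 below every mouse at ZT22 and a log2 difference of -0.28 ± 0.07 (SE, limma adjusted p = 0.583). Ciart, which encodes the repressor CHRONO, was at 5.29 to 7.86 TPM at ZT22 (median 7.03) and 3.82 to 7.89 TPM at ZT2 (median 5.17), a log2 difference of -0.31 ± 0.11. These were the 2 repressors with an unadjusted p under 0.05 on the lower side.

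On the higher side were Nr1d1 and Per2. Nr1d1 was at 28.9 to 38.9 TPM at ZT22 (median 36.1) and 34.5 to 49.6 TPM at ZT2 (median 39.6), a log2 difference of 0.23 ± 0.09, and it passed in DESeq2 only (0.25, adjusted p = 0.0486). Per2 was at 4.54 to 6.72 TPM at ZT22 (median 5.40) and 5.09 to 9.19 TPM at ZT2 (median 6.39), a log2 difference of 0.20 ± 0.09. The remaining repressors had differences within 2 standard errors of 0: Per1 -0.18 ± 0.16, Cry1 0.07 ± 0.07, Cry2 0.05 ± 0.08, Nr1d2 -0.01 ± 0.07, Bhlhe40 0.09 ± 0.10 and Bhlhe41 0.05 ± 0.08.

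Of the output factors, Tef lay lower at ZT2 with little spread. It was at 148 to 161 TPM at ZT22 (median 155) and 118 to 149 TPM at ZT2 (median 143), and 7 of 8 mice at ZT2 lay below every mouse at ZT22. Its log2 difference was -0.18 ± 0.05 (SE, limma adjusted p = 0.759). Dbp lay at -0.09 ± 0.08, Hlf at -0.11 ± 0.10 and Nfil3 at 0.05 ± 0.09. The cold-inducible RNA-binding protein genes, which are induced by lower temperature, lay at -0.16 ± 0.09 (Rbm3) and -0.08 ± 0.08 (Cirbp).

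**Figure D3:**
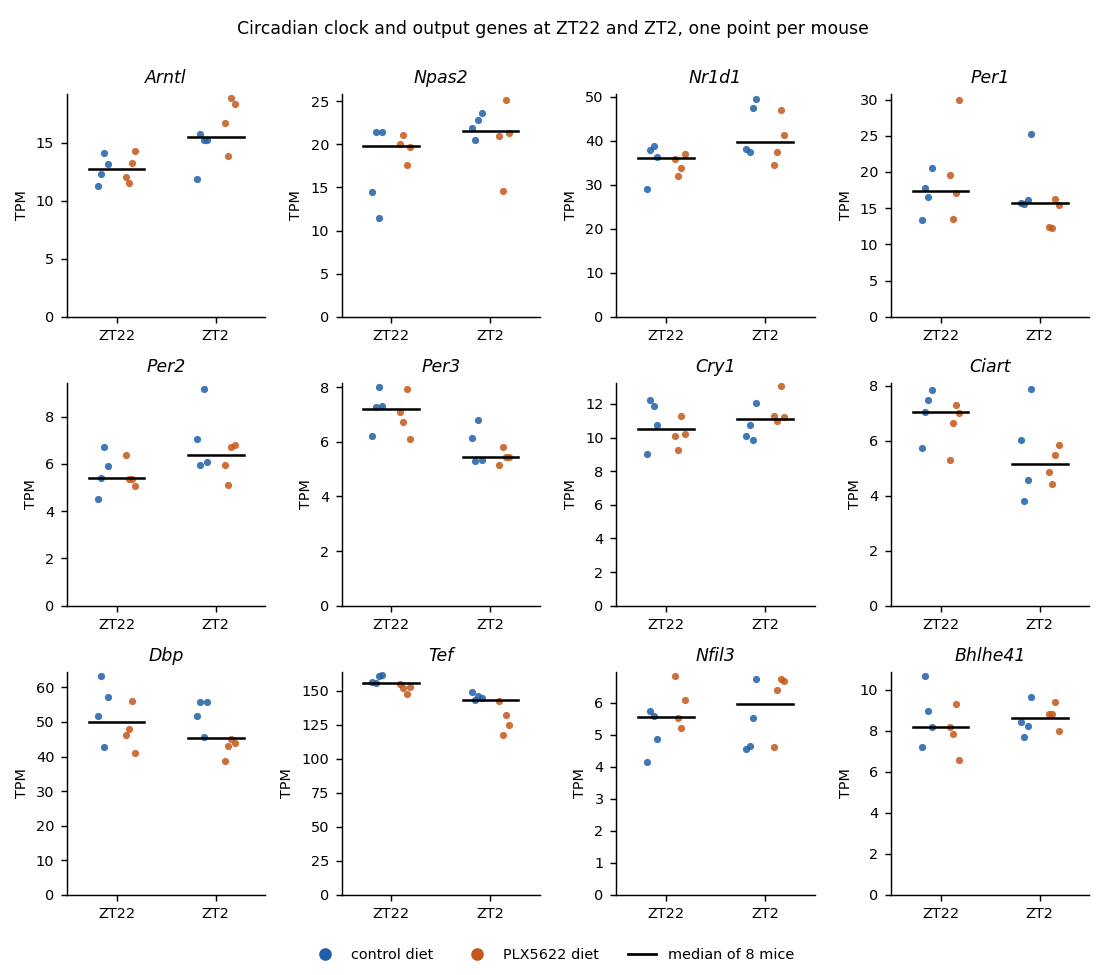
TPM of 12 clock and output genes, one point per mouse (4 on each diet at each time point), with bars at the median of 8 mice. Arntl, Nr1d1 and Per2 have higher medians at ZT2 and Per3, Ciart and Tef lower ones, and the ranges of all 12 genes overlap.

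Genes linked to neuronal activity lay on both sides of 0. Of 28 immediate early genes tested, 13 were higher and 15 lower at ZT2 (median -0.03). At an unadjusted p under 0.05 there were 7, of which 5 were higher and 2 lower, beside 1.41% and 3.33% of all genes tested. Klf4, a zinc-finger transcription factor, was at 2.04 to 3.01 TPM at ZT22 (median 2.65) and 3.06 to 5.48 TPM at ZT2 (median 3.58), with no overlap, and a log2 difference of 0.40 ± 0.09 (SE, limma adjusted p = 0.544). It passed in DESeq2 (adjusted p = 0.00891), and its edgeR adjusted p was 0.147 with the 16 libraries and 0.0369 with all 47.

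Nr4a3, an orphan nuclear receptor, was at 3.34 to 6.61 TPM at ZT22 (median 5.05) and 5.31 to 9.61 TPM at ZT2 (median 6.88), and it passed in DESeq2 (0.53, adjusted p = 0.00772). Fosl2 (0.31 ± 0.09, called by edgeR with 47 libraries at an adjusted p of 0.0313), Egr1 (0.54 ± 0.23) and Ier5 (0.26 ± 0.11) were the other members higher at ZT2, and Jun (-0.21 ± 0.07) and Gadd45g (-0.21 ± 0.08) the members lower. Jun and Fosl2, both subunits of the AP-1 factor, thus had log2 differences of opposite sign.

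Among 19 activity-regulated effector genes, 12 were higher (median 0.07) and 3 of these had an unadjusted p under 0.05, beside 1.41% of all genes tested. Homer1, a scaffold protein of excitatory synapses, was at 42 to 72.7 TPM at ZT22 (median 63.4) and 59.0 to 96.2 TPM at ZT2 (median 77.0), a log2 difference of 0.37 ± 0.11, and it passed in DESeq2 (0.45, adjusted p = 0.0049). Its edgeR adjusted p was 0.125 with the 16 libraries and 0.0172 with all 47. The counts do not separate its short activity-induced form from the long forms. Dusp4 lay at 0.24 ± 0.08 and Spred1, an inhibitor of Ras signalling to ERK, at 0.14 ± 0.06.

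Endoplasmic reticulum chaperones were mostly higher at ZT2. Of 23 members tested, 18 were higher at ZT2 (median 0.05), and 5 had an unadjusted p under 0.05, all higher, beside 1.41% of all genes tested. Xbp1, the transcription factor spliced by IRE1, was at 32.9 to 53.0 TPM at ZT22 (median 44.0) and 45.7 to 63.6 TPM at ZT2 (median 51.2), and all 8 mice at ZT2 lay above the ZT22 median. Its log2 difference was 0.29 ± 0.09, and it passed in DESeq2 (0.35, adjusted p = 0.00189). Its edgeR adjusted p was 0.0721 with the 16 libraries and 0.0216 with all 47.

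The other 4 were Sdf2l1 (0.29 ± 0.11), the protein disulfide isomerase Pdia4 (0.27 ± 0.08), the chaperone BiP, encoded by Hspa5 (0.25 ± 0.10), and Ddit3, which encodes CHOP (0.12 ± 0.05). Pooled over diets, the cytosolic and mitochondrial heat-shock genes did not share this, with 17 of 22 lower (median -0.05), where 9091 of all 14580 genes were. By diet, 19 were lower in control mice (median -0.10) and 9 in PLX5622 mice (median 0.02). Only Hsf1, the heat-shock transcription factor, had an unadjusted p under 0.05 (0.18 ± 0.06). Dnajb5, a co-chaperone outside that list, had no overlap on TPM, with 44.6 to 58.1 TPM at ZT22 (median 52.2) and 58.8 to 80.2 TPM at ZT2 (median 62.7). On the counts its ranges overlapped, at 74.1 to 97.5 CPM at ZT22 and 81.2 to 118 CPM at ZT2.

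Lipid and nutrient genes passed no adjusted threshold in limma or edgeR on the 16 libraries. Of 24 genes of cholesterol synthesis and uptake, 16 were lower (median -0.04) and 3 had an unadjusted p under 0.05, all lower, beside 3.33% of all genes tested. Insig1, which retains the sterol sensor in the endoplasmic reticulum, was at 42 to 55.8 TPM at ZT22 (median 45.9) and 28.8 to 50.5 TPM at ZT2 (median 38.8), and it passed in DESeq2 (-0.26, adjusted p = 0.0486) and in edgeR with 47 libraries (adjusted p = 0.0172) but not with 16 (adjusted p = 0.235). Lss, lanosterol synthase, lay at -0.34 ± 0.14 on TPM but at 0.05 on counts in edgeR, so its direction depended on the table.

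Of 17 genes induced by fasting through PPAR-alpha or FOXO factors, 13 were lower (median -0.14), where 9091 of all 14580 genes were, and 3 had an unadjusted p under 0.05, all lower, beside 3.33% of all genes tested. Klf15, a glucocorticoid-responsive transcription factor of amino acid metabolism, was at 14.6 to 18.9 TPM at ZT22 (median 16.4) and 11.4 to 15.4 TPM at ZT2 (median 13.9), a log2 difference of -0.25 ± 0.06 (SE, limma adjusted p = 0.558). Arrdc2 lay at -0.40 ± 0.12 and Txnip at -0.21 ± 0.07, and for Txnip the difference was -0.04 in control and -0.39 in PLX5622 mice.

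Blood-brain barrier genes went both ways. Of 18 tested, 11 were higher (median 0.01), and 4 had an unadjusted p under 0.05 on the higher side, beside 1.41% of all genes tested. These were the VEGF receptors Kdr (0.35 ± 0.10) and Flt1 (0.18 ± 0.08), the thyroxine transporter Slco1c1 (0.21 ± 0.07) and the tight junction protein Cldn5 (0.17 ± 0.06). Kdr was at 2.54 to 4.84 TPM at ZT22 (median 3.38) and 3.49 to 5.86 TPM at ZT2 (median 4.95), and all 8 mice at ZT2 lay above the ZT22 median. On the lower side, beside 3.33% of all genes tested, were the nutrient carriers Mfsd2a, which transports lysophospholipids (-0.33 ± 0.12), and Slc2a1, the glucose transporter GLUT1 (-0.20 ± 0.09).

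Pooled over diets, markers of most cell types lay near the median of all genes. Excitatory neurons (12 genes, median 0.03), interneurons (12, -0.05), astrocytes (12, -0.06), myelinating oligodendrocytes (12, -0.06) and mural cells (10, -0.02) had 0 members at an unadjusted p under 0.05, and so had neuropeptides (13, 0.01), ionotropic glutamate receptor subunits (15, -0.04), matrix proteases and inhibitors (11, -0.05) and the interferon response (14, 0.01). By diet, the medians in control and PLX5622 mice were 0.15 and -0.12 for excitatory neurons and -0.22 and 0.04 for myelinating oligodendrocytes. They were -0.05 and 0.06 for interneurons, -0.07 and -0.06 for astrocytes and -0.04 and 0.03 for mural cells. Over all genes tested they were -0.06 and 0.001. The members with the smallest p were Rasgrf2 (-0.23 ± 0.12), Adarb2 (-0.22 ± 0.14), Aldh1l1 (-0.14 ± 0.07), Cldn11 (-0.17 ± 0.14), Rgs5 (0.16 ± 0.07), Crh (0.18 ± 0.11), Grin2b (-0.25 ± 0.21), Mmp14 (0.22 ± 0.12) and Ifi27 (-0.15 ± 0.07). Oligodendrocyte precursor and differentiation genes had 1 member at an unadjusted p under 0.05, Enpp6 (0.27 ± 0.11). Perineuronal net components, the matrix around parvalbumin interneurons, had 1 of 9, the link protein Hapln1 (0.28 ± 0.12 on TPM). Its highest TPM, 27.0, was in PLX5622 ZT2 replicate 1. On the counts Hapln1 overlapped widely, at 22.8 to 32.9 CPM at ZT22 and 26.7 to 35.7 CPM at ZT2.

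Several lists of other cells and tissues had log2 differences of a single sign over the 16 mice, and their part in the results above was not tested. All 16 microglial markers were lower at ZT2 (median -0.35), with medians of 0.03 in control and -0.66 in PLX5622 mice, and Csf1r (-0.72 ± 0.27) and Fcrls (-0.39 ± 0.16) had an unadjusted p under 0.05. No microglial marker was at 0 in every PLX5622 library at ZT2, and 2 were at 0 in at least 1 of them. Only 2 of 8 border macrophage markers could be tested (median -0.16), and the one with the smaller p was Pf4 (-0.19 ± 0.25).

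All 9 choroid plexus genes had positive differences (median 0.17, with 0.44 in control and -0.18 in PLX5622 mice), and Kcnj13 (0.52 ± 0.20) had an unadjusted p under 0.05. Their summed level ran from 71.3 to 1282 TPM at ZT22 and from 615 to 1101 TPM at ZT2. All 7 blood genes had negative differences (median -0.42) with none at an unadjusted p under 0.05, and the smallest p was that of the globin Hbb-bt (-0.50 ± 0.47). Their summed level was 291 to 1685 TPM at ZT22 and 223 to 2331 TPM at ZT2.

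Striatal genes (median 0.09, smallest p for Drd2, 0.17 ± 0.31), genes of hippocampus and thalamus (median -0.19, smallest p for Lef1, 0.19 ± 0.11) and the 13 mitochondrially encoded genes (11 higher, median 0.11, mt-Co1 0.14 ± 0.07) gave 0 members at an unadjusted p under 0.05. With the mitochondrial share of the counts as a covariate limma again called 0 genes between ZT22 and ZT2.

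The step was then compared between diets. The diet by time interaction in limma called 0 of 14580 genes (0%, smallest adjusted p = 0.387), with 508 at an unadjusted p under 0.05 (3.48%). edgeR also called 0, with 568 at an unadjusted p under 0.05, and DESeq2 called 2, Ace and P2ry13. Ace encodes angiotensin-converting enzyme, which choroid plexus and vessels express. Its log2 change in limma on TPM was 0.45 in control and -0.31 in PLX5622 mice. P2ry13, a microglial purine receptor, lay at 0.07 in control and -0.44 in PLX5622 mice on the same scale. In PLX5622 mice it was near the floor, at 0.405 to 0.600 TPM at ZT22 and 0 to 0.221 TPM at ZT2. Control mice at ZT22 had 6.50 to 9.73 TPM. The 5 smallest interaction p-values belonged to AC102496.1, Ace, Gm29668, Ccdc160 and 3110039M20Rik.

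Over all genes tested, the step in control mice and the step in PLX5622 mice had a Pearson correlation of 0.00681 and the same sign for 51.6% of genes, as a description across genes, which are not independent replicates. Of the 9 genes called by edgeR, the limma interaction was smallest in p for Hif3a (unadjusted p = 0.0397) and Plin4 (unadjusted p = 0.0401). Fkbp5 had the closest steps on TPM, -0.35 in control and -0.36 in PLX5622 mice (95% interval of the interaction -0.30 to 0.28).

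Few genes passed in either diet alone. limma called 0 genes in control mice and 2 in PLX5622 mice, Gm6361 (-6.78) and Gm6565 (6.60), predicted genes of a kind whose reads may be shared with near-identical copies. edgeR called 6 in control mice and 0 in PLX5622 mice. The 6 were Hif3a, Tsc22d3, Plin4, Atp10a, the orphan nuclear receptor gene Nr4a3 and Trh, the precursor of thyrotropin-releasing hormone.

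The step across lights-on was set against the step across lights-off, ZT14 against ZT10, which shares no library with it (15 mice, since control ZT14 had 3). In the fit of all 47 libraries, 708 genes changed across lights-off (4.86%), 618 of them upward (4.24%), against 4 across lights-on. On the counts, edgeR called 1202 genes across lights-off (6.58%), 763 higher and 439 lower, so the upward share was smaller there. The median of all genes across lights-off was 0.08 in limma and -0.02 in edgeR. Steps without a change of light also differed in count. From ZT14 to ZT18 limma called 1358 genes (9.31%), 1313 lower, and edgeR 704, 307 lower. In limma ZT2 to ZT6 gave 135, ZT6 to ZT10 gave 9 and ZT18 to ZT22 gave 6. The difference between the lights-on and lights-off steps passed for 102 genes (0.7%), 96 of them lower (0.658%) and 6 higher. Lower here means a lights-on step below the lights-off step. Over all genes this difference had a median of -0.10, and with median-of-ratios scaling, which brought the median to 0.01, 108 genes passed, 82 lower and 26 higher, 78 of them shared with the 102. edgeR called 187, 143 lower and 44 higher. The limma count was 52 with the mitochondrial covariate, 50 without control ZT14 replicate 3 and 203 without control ZT14 replicate 2. Of the 102 genes, 92 had a negative log2 difference across lights-on and a positive one across lights-off. Across lights-off 81 were called higher, beside 4.24% of all genes tested. Across lights-on 53 had an unadjusted p under 0.05 in the fit of 16 libraries, beside 4.74% of all genes tested. The 102 genes were chosen for a difference between these same steps, so these counts describe the choice and are no separate test.

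The 5 genes with the smallest p were Plin4 (-1.78, limma adjusted p = 5.77e-08), Atp10a (-1.03, 9.04e-07), Fkbp5 (-1.02, 1.32e-06), Xdh (-1.12, 0.000158) and Tsc22d3 (-0.92, 0.000174). Each of them was called by edgeR across lights-on and was higher across lights-off, with log2 changes of 1.12 for Plin4, 0.53 for Atp10a, 0.66 for Fkbp5, 0.48 for Xdh and 0.40 for Tsc22d3. In the glucocorticoid list 7 of 17 members were among the 102, beside 0.7% of all genes tested. Besides Plin4, Fkbp5 and Tsc22d3 they were Sult1a1 (-0.91), Zbtb16 (-0.95), Pnpla2 (-0.67) and Ddit4 (-0.61). Across lights-off 8 members were called higher, beside 4.24% of all genes tested.

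Clock and output genes among the 102 were Tef (-0.44), Cry1 (-0.48) and Per3 (-0.43). Tef, the output factor whose ZT2 levels lay low, had a log2 difference of 0.26 across lights-off (adjusted p = 0.00438), and the repressor Cry1 differed through its step across lights-off (0.55, adjusted p = 1.77e-05) with 0.07 across lights-on. The immediate early genes were Arc (-2.93), Nr4a1 (-1.38), Trib1 (-0.96), Dusp6 (-0.92) and Dusp5 (-0.88). In that order they lay at -0.51, -0.04, -0.18, -0.02 and -0.11 across lights-on. Across lights-off they lay at 2.42, 1.34, 0.77, 0.90 and 0.77. The barrier carriers Mfsd2a (-0.93) and Slc2a1 (-0.62) also had a negative difference between the steps. So did the heat-shock genes Hspa1b (-1.14) and Hspa1a (-0.91), near-identical copies whose reads may be split. Hspa1b and Hspa1a lay at -0.05 and -0.07 across lights-on, against 1.09 and 0.84 across lights-off. Opalin, a myelin gene, was the list member with a positive difference (0.62), at -0.04 across lights-on and -0.66 across lights-off.

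Klf4, Homer1, Xbp1 and Dnajb5 did not pass in this comparison. Their lights-on minus lights-off values were -0.10, -0.08, -0.17 and -0.20 (adjusted p = 0.757, 0.844, 0.575 and 0.493), and each was called higher across lights-off (log2 changes of 0.49, 0.45, 0.47 and 0.56). For these genes the log2 differences were thus positive across both changes of light.

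**Figure D4:**
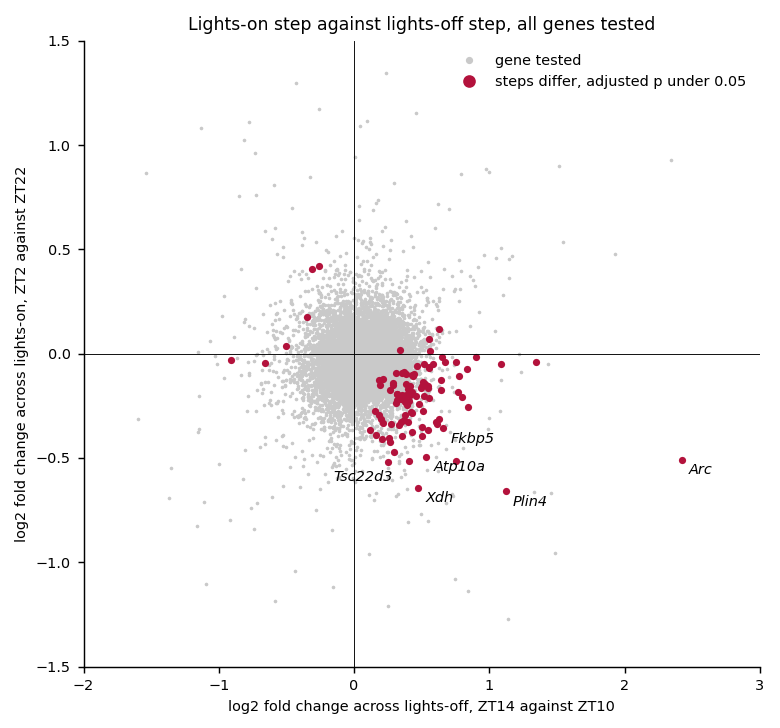
Log2 fold change across lights-on (ZT2 against ZT22, vertical) against that across lights-off (ZT14 against ZT10, horizontal) for the genes tested, with the 102 genes whose steps differ in red and 7 grey genes outside the axes. Most red points lie at the lower right, higher across lights-off and lower across lights-on, and Arc lies farthest right.

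Over the day, Fkbp5 was at 9.71 ± 0.554 TPM at ZT2 (mean ± SD), 10.6 ± 1.70 at ZT6, 12 ± 1.01 at ZT10, 19.6 ± 3.24 at ZT14, 11.2 ± 1.12 at ZT18 and 12.8 ± 1.32 at ZT22. Its lowest mean was thus at ZT2 and its highest at ZT14. Tsc22d3, Xdh and Ddit4 also had their lowest means at ZT2 (47 ± 5.62, 1.57 ± 0.256 and 27.5 ± 3.84 TPM) and their highest at ZT14 (92.4 ± 11.8, 4.69 ± 0.937 and 38.1 ± 3.47 TPM), although for Ddit4 the 3 dark-phase means lay within an SD of each other. For Atp10a and Plin4 the means at ZT2 and ZT6 differed by less than their SDs.

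Cbfa2t3 had 2 maxima, at 12.3 ± 2.21 TPM at ZT2 and 12.5 ± 2.90 TPM at ZT14, with 7.25 ± 1.90 at ZT6 and 6.94 ± 1.31 at ZT10. Fam53b was highest at ZT2 (19.6 ± 2.66 TPM) and lowest at ZT6 (14.2 ± 2.36 TPM), with 18.3 ± 3.08 at ZT14. Both genes thus stood higher at ZT2 than at ZT22 and ZT6.

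**Figure D5:**
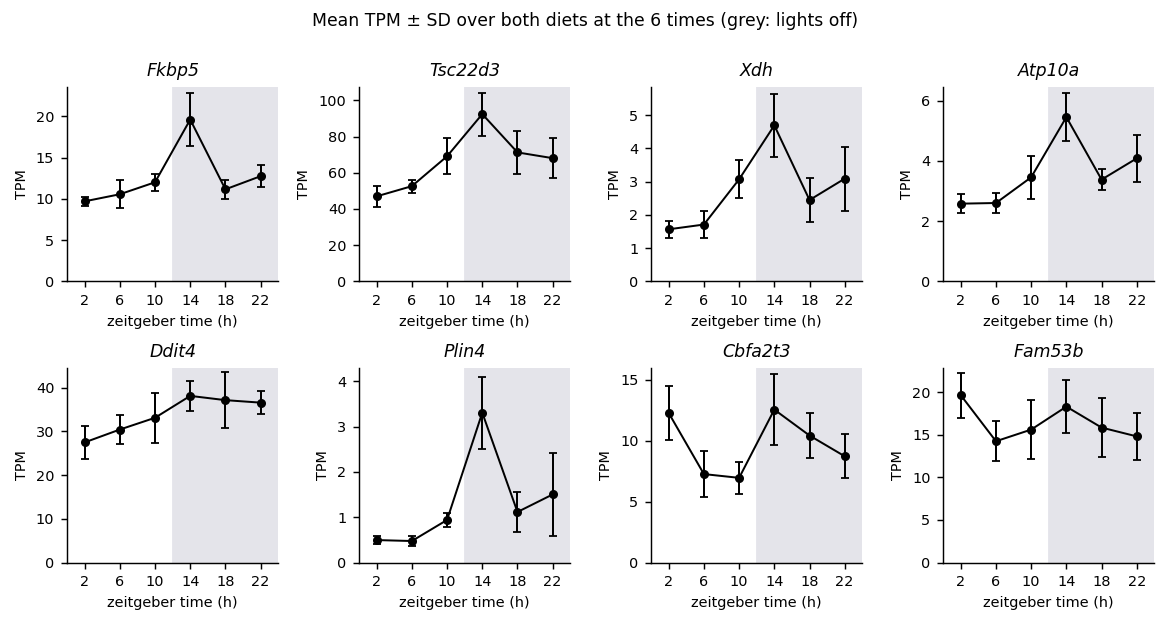
Mean TPM ± SD over both diets at the 6 time points (8 mice each, 7 at ZT14) for 8 of the 9 genes called by edgeR, with the dark phase in grey. Fkbp5, Tsc22d3, Xdh, Atp10a and Plin4 reach their highest mean at ZT14 and lie low at ZT2, while Cbfa2t3 and Fam53b are high at both ZT2 and ZT14.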

How the data were processed

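Cortex RNA was sequenced in 47 libraries, 1 mouse each, and 16 of them (ZT2 and ZT22, 4 mice per diet and time point) were compared here. The authors deposited a table of whole-number read counts per gene (54532 genes; STAR and featureCounts on mm10, per the submitters' processing notes) and a table of TPM per gene (54281 genes), which the authors made by quantifying reads against GENCODE transcripts with Salmon. Both were used as deposited. The labels name sequencing platforms but do not tie them to libraries, so a platform batch was not tested.

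Following the study's use of limma, log2(TPM + 1) of the 14580 genes averaging 1 TPM or more in the 47 libraries was fitted with limma 3.58.1 (R 4.3.3) on diet and time, two-sided, with Benjamini-Hochberg adjustment and a threshold of 0.05. The diet by time interaction used the same libraries, and the contrast of lights-on with lights-off used 12 group means over 47 libraries. Fold changes on this scale understate the change of low genes. edgeR 4.0.16 (quasi-likelihood) and DESeq2 1.42.0 were run on the counts. CPM are counts scaled to a library's total over genes. Scripts were tested on simulated data. Gene positions are from GENCODE vM21 (GRCm38).

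The time contrast and the 30 gene lists were chosen with earlier results of these data known. Named genes are the clock, output and cold-inducible members, the member with the smallest p in each other list (none passed) and the 5 smallest p in each of the other comparisons. Every other gene, including those called by edgeR or DESeq2, was named after its values were seen. Some members of the lists are not reported here. Alternatives were other filters, pseudocounts, scalings, tools, a replicate block, a mitochondrial covariate, each diet alone and leaving out each library. Further edgeR fits (47 libraries, RLE factors, replicate block, each diet alone, leaving out each library) were added after seeing the data. No 2 libraries of a group agreed within sampling noise (smallest chi-square per degree of freedom 5.793).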

Additional observations from a re-analysis of the deposited data

Results flagged for a closer look

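Of 122 groups of 8 values examined for a single mouse far from the other 7 (Dixon's test), 8 had one, where chance gives about 6.1. In TPM, PLX5622 ZT2 replicate 2 was low for Npas2 (14.5, others 20.6 to 25.2) and Cbfa2t3 (7.32, others 11.8 to 14.9) and high for Lef1 (5.09, others 3.02 to 3.80) and Hbb-bt (135, others 11.0 to 68.4). Per1 was high in PLX5622 ZT22 replicate 4 (29.9, others 13.3 to 20.5) and in control ZT2 replicate 4 (25.3, others 12.3 to 16.3). Cirbp was high in PLX5622 ZT22 replicate 3 (100.4, others 66.4 to 76.9) and Mmp14 in control ZT22 replicate 1 (12.3, others 8.49 to 9.89).

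The steps across lights-on and lights-off differed by the test of their difference for 102 genes. The log2 differences of the 5 with the smallest p were -1.78 for Plin4, -1.03 for Atp10a, -1.02 for Fkbp5, -1.12 for Xdh and -0.92 for Tsc22d3.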

How the results depend on the processing

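The count of genes called between ZT22 and ZT2, 0 in limma on the 16 libraries, stayed 0 with no filter, a filter at 5 TPM, a pseudocount of 0.1, median-of-ratios scaling, a variance trend, the mitochondrial covariate, the replicate block, control mice alone and each library left out (0 to 0). It was 4 with all 47 libraries, 2 in PLX5622 mice alone, 9 in edgeR and 37 in DESeq2. The edgeR count was 26 without its expression filter (8 of the 9 genes shared), 9 with RLE factors and 23 with 47 libraries (all 9 shared in both), 6 in control mice alone, and 4 to 23 with each library left out, 4 without control ZT2 replicate 1, 2 or 3 7 without control ZT22 replicate 3 or PLX5622 ZT22 replicate 2 or 4 or PLX5622 ZT2 replicate 1, and 23 without PLX5622 ZT2 replicate 2. For the interaction, DESeq2 gave 2 and leaving out libraries 0 to 0. The lights-on against lights-off count of 102 became 63 with no filter, 353 with the replicate block, 52 with the mitochondrial covariate, 187 in edgeR, 333 in DESeq2 and 50 to 203 with each library left out, 50 without control ZT14 replicate 3 and 203 without control ZT14 replicate 2. The cause of these differences was not tested. Without single libraries the mitochondrial difference ran from 0.521 to 0.950 percentage points and that in total counts from 92940 to 1317470.

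The replicate numbers are shared across groups, but the labels do not say that they mark a shared litter, cage or day. Deviations of same-numbered libraries correlated above 0.1 in 10 of 24 pairs (median 0.0928, other pairs -0.0372), and 13 of 16 libraries correlated best with their own number. A replicate block in edgeR moved the count from 9 to 26, with all 9 genes shared, and the 26 held Homer1, Xbp1 and the immediate early genes Nr4a3, Egr1, Fos and Csrnp1.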
